A study of Mus musculus with 20 samples.

Results

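Open chromatin was described around 8 genes of the circadian clock and of the metabolism tied to it: Rora, Nr1d1, Nr1d2, Per1, Per2, Bhlhe40, Ppargc1a and Ppargc1b. A peak belonged to a gene when its summit lay inside the gene span on mm10 or within 50 kb of either end. The 8 windows held 1839 of 924275 peaks. Overlapping peaks of a list were merged into 1059 regions of 539319, and regions that overlapped by at least 1 bp across lists were joined into elements, which gave 199 elements of 101406. The genes were chosen by the presence and signal of peaks in these same lists, so presence across lists is given as a description and no test is applied to it.

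The lists come from ATAC-seq, in which the transposase Tn5 cuts and tags accessible DNA. All cells were sorted from the tail epidermis of Lrig1CreER/Rosa-TdTomato mice as Lrig1 GL Sca1+ cells. In this genotype Cre is driven from Lrig1, and the red reporter stays on in the descendants of cells in which Cre acted. Of the 10 groups, 4 follow wounding: homeostasis, 1 week after the first wound, 8 weeks after it, and 1 week after a second wound. A pair of groups compares PRT4165, an inhibitor of the histone H2A ubiquitin ligase of Polycomb complex PRC1, with its vehicle. Another compares wounded and UVB-treated epidermis with UVB-treated epidermis. The last pair holds cells taken 8 weeks after the first wound and cultured, from a distal memory region and from a control region that the labels call non-memory. Each group has 2 libraries, and the authors deposited 1 peak list for both together. There is therefore 1 value per group, no spread between replicates and no test between groups, and the intervals below are Wilson 95% intervals that cover counting error only. The sources used here do not state sex, age, the number of animals, the time of day of collection or read depth.

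The lists differed in length, from 34644 regions at 8 weeks to 73340 regions with UVB. A longer list can hold more regions of any gene, so counts are also given per 10000 regions of the list. Regions within 1 kb of a gene end marked 4 to 6 of 7 keratinocyte and sorted-lineage genes per list, with Krt5, Krt14, Lrig1 and Itga6 in all 10. Ly6a, the gene of Sca1, had such a region in 5 lists (PRT4165, vehicle, wound and UVB, UVB, and cultured control), and Trp63 in none. The rule looks only at the outer ends of a gene span, so a start inside the span is missed. T cells were marked at 1 to 4 of 8 genes per list. Cd4 was marked in all 10 lists, and Cd27 in all but those of 8 weeks and the second wound. Cd247 was marked in the PRT4165, vehicle and both UVB lists, Cd8a in the vehicle list, and Cd3e, Cd3g, Cd2 and Lck in none. Other cell types were marked at 0 to 3 of 6 fibroblast genes, 0 or 1 of 5 endothelial genes and 2 of 5 melanocyte genes (Mitf and Pmel, in every list). The fibroblast genes were Col1a1, Dcn and Pdgfra with vehicle, Col1a1 alone with PRT4165, and Col1a1 and Dcn in both UVB lists. Adipocyte genes were marked at 0 to 2 of 4 and muscle genes at 1 or 2 of 4. The Y-linked genes Ddx3y, Uty and Eif2s3y were marked in the lists of 1 week after the first and the second wound, wound and UVB, and both cultured groups, and in none of the other 5. The part of these differences in the results below was not tested.

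The mammalian clock is a loop of transcription. CLOCK and BMAL1 (the product of Arntl) activate genes through E-boxes, among them the Per and Cry genes, whose products then block that activation. In a second loop RORA activates and the nuclear receptors encoded by Nr1d1 and Nr1d2 repress Arntl through the same DNA element. Bhlhe40 encodes DEC1, a repressor that competes at E-boxes. Ppargc1a and Ppargc1b encode the coactivators PGC-1 alpha and PGC-1 beta, which drive mitochondrial genes, and PGC-1 alpha also coactivates ROR receptors on clock genes. Epidermal keratinocytes and hair follicle cells run this clock, which gates their divisions through the day.

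The start windows of Nr1d1, Ppargc1a and Per1 are shown because they took part to different degrees in the lists. The windows are from RefSeq on GRCm38.p6, the assembly of mm10, and run from 250 bases before to 50 after a start, 5′ to 3′ on the strand of the gene. Sequences matched 5 of the 8 genes, with 6 windows in all. Capitals mark matches to 6 searched motifs on either strand: the E-box CACGTG, the related E-prime-box CACGTT, the nuclear receptor half-site AGGTCA, the D-box TTATGNAA, the cyclic AMP element TGACGTCA and the AP-1 site TGANTCA. The windows lie at chr11:98775328-98775627 on the minus strand for Nr1d1, chr5:51567676-51567975 on the minus strand for Ppargc1a, and chr11:69098699-69098998 and chr11:69099902-69100201 on the plus strand for the 2 Per1 starts.
Nr1d1: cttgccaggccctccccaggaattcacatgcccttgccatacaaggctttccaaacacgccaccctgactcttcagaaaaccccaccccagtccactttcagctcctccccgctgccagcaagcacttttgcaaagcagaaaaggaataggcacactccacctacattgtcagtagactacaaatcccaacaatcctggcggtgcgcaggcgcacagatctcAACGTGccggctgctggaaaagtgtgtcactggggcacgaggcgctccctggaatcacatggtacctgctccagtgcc
Ppargc1a: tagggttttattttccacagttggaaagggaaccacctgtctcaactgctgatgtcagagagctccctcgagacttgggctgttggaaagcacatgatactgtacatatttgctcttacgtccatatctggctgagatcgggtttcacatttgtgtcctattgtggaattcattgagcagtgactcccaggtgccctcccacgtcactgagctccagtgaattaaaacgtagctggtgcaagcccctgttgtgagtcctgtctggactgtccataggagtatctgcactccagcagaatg
Per1 start 1: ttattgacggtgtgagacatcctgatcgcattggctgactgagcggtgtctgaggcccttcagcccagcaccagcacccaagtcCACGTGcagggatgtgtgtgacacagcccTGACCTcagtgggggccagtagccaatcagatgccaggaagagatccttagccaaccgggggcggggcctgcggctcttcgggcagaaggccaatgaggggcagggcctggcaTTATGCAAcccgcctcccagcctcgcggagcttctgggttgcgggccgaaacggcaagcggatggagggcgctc
Per1 start 2: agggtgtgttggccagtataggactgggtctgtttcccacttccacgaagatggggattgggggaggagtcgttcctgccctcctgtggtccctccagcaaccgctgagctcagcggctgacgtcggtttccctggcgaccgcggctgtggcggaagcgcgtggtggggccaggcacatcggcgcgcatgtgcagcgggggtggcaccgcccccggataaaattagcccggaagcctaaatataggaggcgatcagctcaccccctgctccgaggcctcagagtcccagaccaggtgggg

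The Per1 window at start 1 held 3 of the motifs. With the start base as 0, the E-box spanned bases -166 to -161, a half-site on the minus strand -137 to -132, and the D-box -24 to -17. The strongest summit of the region over this window lay between -185 and -147 in the 10 lists. It lay inside the E-box in the homeostasis list alone, at -165, and outside it in the others. Nr1d1 had an E-prime-box at -28 to -23 on the minus strand, and Nr1d2 a half-site at -77 to -72. None of the 6 motifs was found in the windows of Rora, Ppargc1a and Per1 start 2. Among 32851 RefSeq windows of the same length, 7.15% held the E-box, 4.68% the E-prime-box, 16.3% the half-site, 3.38% the D-box, 1.79% the cyclic AMP element and 7.81% the AP-1 site.

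Regions covered the windows of Nr1d1, Nr1d2 and Per1 start 1 in all 10 lists, that of Rora in 9, that of Ppargc1a in 4 and that of Per1 start 2 in 3. Of all windows, 29.8% were covered in 10 lists, 53.5% in none and 16.8% in some. Signal, the authors' signal value per peak, ranks regions within a list. It is printed for each list below, but its differences between lists are not read as differences in openness. The sources used here do not state what it measures. On that rank, in which 100 is the strongest region of a list, the region over Nr1d2 stood at percentile 54 to 75.1. Over Nr1d1 it stood at only 1.63 to 16.2 and over Per1 start 1 at 0.889 to 15.9, although both were present in every list. The rank describes signal alone and says nothing of the width or total reads of a region. Below, the strongest element of a gene is the one with the highest signal in any list. Another element can be higher in a given list.

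**Figure D1:**
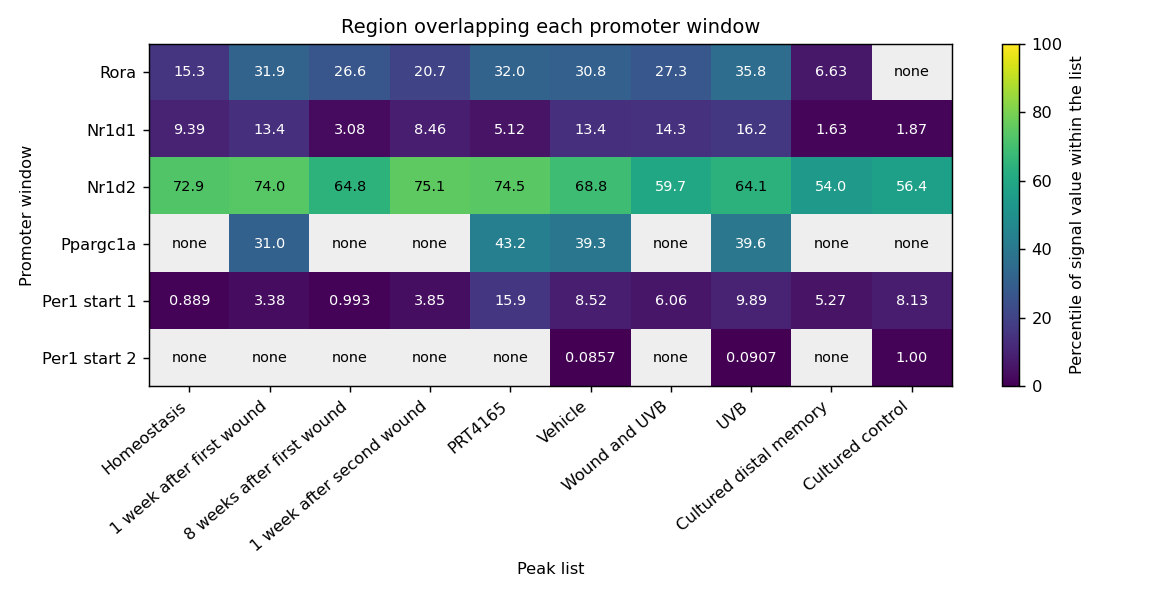
Presence of a region over the 6 RefSeq start windows of the members (rows) in each of the 10 lists (columns). Each filled cell gives the rank percentile of the region's signal within its list, and none means no region; Nr1d1, Nr1d2 and Per1 start 1 are filled in all 10 lists, Ppargc1a in 4 and Per1 start 2 in 3.

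Across the 8 genes, 36 of 199 elements were held by all 10 lists (18.1%, interval 13.4 to 24.0), against 18.8% of all elements of the genome. Another 30 were held by 1 list (15.1%, against 17.1% of all elements), 9 of them by the vehicle list, 9 by UVB and 7 by the cultured control. The split of such elements by list was not counted over all elements, and a longer list can hold more of them. Elements with a summit within 1 kb of an end of the gene span were 13, of which 9 were held by all 10 lists. Elsewhere 27 of 186 were. The median number of lists was 10 at the ends and 4 elsewhere. The same shares were not counted for end elements of all genes, so this difference is not given as a trait of the 8 genes. Of the 199 elements, 107 lay inside the span of their own gene and 29 inside another gene of the window, so not every element can be assigned to the gene it is listed under.

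Rora encodes the activating receptor of the second loop. Its span of 734.8 kb on chromosome 9 held 53 of its 55 elements, and the other two lay in Ice2 next to it. The list counts were 11 regions in homeostasis, 23 at 1 week, 15 at 8 weeks and 19 following the second wound. They were 29 with PRT4165 and 33 with vehicle, 41 with wound and UVB and 46 with UVB, and 11 in the cultured distal memory list and 12 in the cultured control list. Per 10000 regions of the list, the counts were highest in the UVB pair, at 6.16 with wound and UVB and 6.27 with UVB, and lowest in the cultured pair, at 2.41 for distal memory and 2.21 for control. The homeostasis, wound, PRT4165 and vehicle lists lay between 3.13 and 4.71.

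The 5′ region of Rora, chr9:68653369-68654298, occurred in 9 lists, and the cultured control lacked it. Its signal was 6.19 in homeostasis, 7.38 at 1 week, 7.45 at 8 weeks, 6.88 following the second wound, 7.59 with PRT4165, 7.04 with vehicle, 8.05 with wound and UVB, 8.08 with UVB and 5.12 in the cultured distal memory list. In that last list it ranked at percentile 6.63, and in the other 8 between 15.3 and 35.8. Its summit there was 211 bases after the start, against 44 to 111 bases before it in the 8 uncultured lists.

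Most Rora elements lay inside the gene, but its span of 734.8 kb also makes up most of the window, which adds 50 kb at each end. Held by all 10 lists were 4 elements. One of them, chr9:69010646-69011578, 357.7 kb above the lower end, had the highest signal of any Rora element in any list, 22.1 with UVB. Its signal was 11.4 in homeostasis, 14.6 at 1 week, 10.4 at 8 weeks, 10.1 following the second wound, 21.6 with PRT4165, 20.6 with vehicle, 20.1 with wound and UVB, 22.1 with UVB, 9.56 in cultured distal memory and 8.64 in cultured control cells. The steadiest in rank was chr9:69289269-69290974, 636.4 kb above the lower end, with percentile 75.3 to 87.8 in the 10 lists. Its signal was above that of the first in homeostasis (14.3), at 8 weeks (13.2) and following the second wound (12.5). It was also above it in cultured distal memory (16.2) and cultured control cells (15.7), and below it in the other lists. Both lie between the annotated ends of the gene, and the annotation used here does not separate exons from introns.

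A second strong element, chr9:69264907-69265819, was in every uncultured list and in neither cultured list. Its signal was 14.7 in homeostasis, 16.9 at 1 week, 14.7 at 8 weeks, 14.4 following the second wound, 20.5 with PRT4165, 21.2 with vehicle, 21.2 with wound and UVB and 20.3 with UVB, which placed it at percentile 84.9 to 96.6. Wherever present it was thus among the stronger regions of its list. The same pattern held for 5 Rora elements in all, the others 287.8, 303.3, 401.6 and 574.5 kb above the lower end. The reverse, both cultured lists and no other, held for 3 elements, of which the one in Ice2 at chr9:69431909-69432463, 43.8 kb beyond the upper end, was the strongest with 16.1 in distal memory and 18.5 in control cells.

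Rora also held most of the elements found in the UVB pair alone. Of its 55 elements, 7 were held by both UVB lists and by no other (12.7%, interval 6.30 to 24.0), against 1.52% of all elements. This pattern was not a planned count, and Rora had the highest share of the 8 genes. The interval treats neighbouring elements of a gene as independent, so the share is a description only. The strongest of these 7 elements, 620.5 kb above the lower end, had a signal of 12.5 with wound and UVB and 9.60 with UVB. The other 6 had 6.42 to 9.47 with wound and UVB and 4.64 to 8.11 with UVB. Over the 8 genes 9 elements had this pattern (4.52%), the other two in the windows of Nr1d1 and Ppargc1b. Of the 9 Rora elements held by a single list, 5 belonged to UVB, and the strongest of the 9 had a signal of 8.32 there, 319.0 kb above the lower end. UVB is the longest list, with 73340 regions, and the matching split over all elements was not counted.

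**Figure D2:**
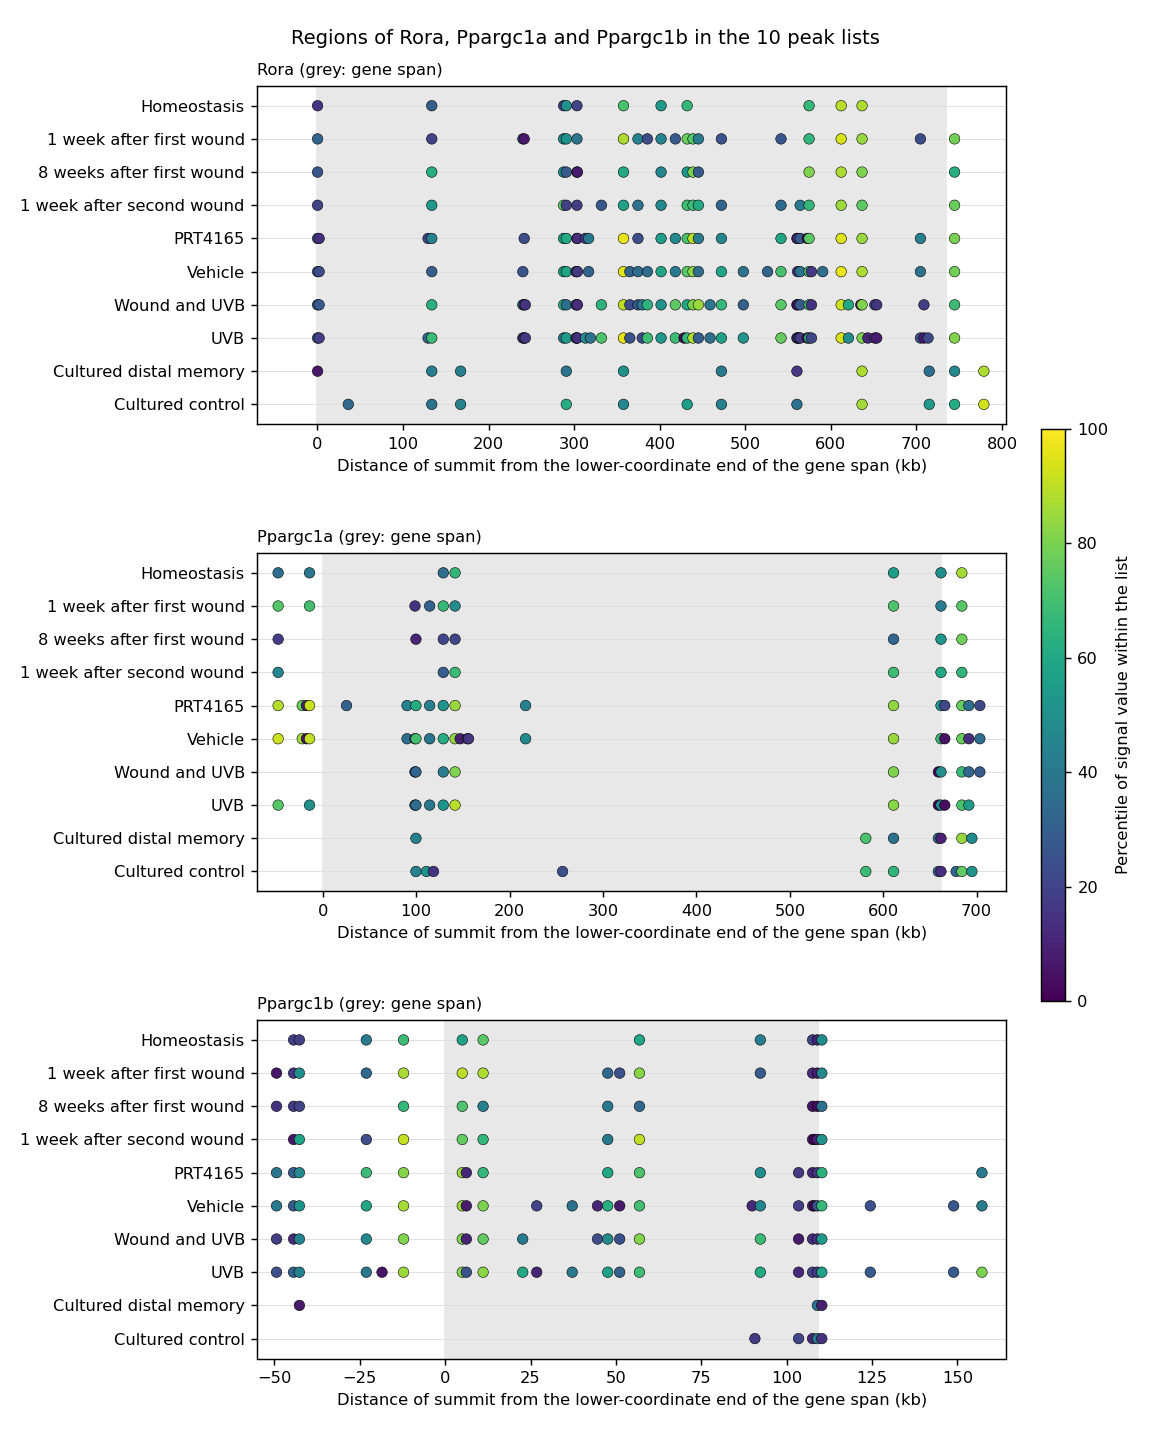
Positions of the elements of Rora, Ppargc1a and Ppargc1b (x axis, kb from the lower end of the gene span; grey marks the span) in the 10 lists (rows). Each point is an element present in that list, coloured by the rank percentile of its signal; Rora shows 11 regions in homeostasis and 46 with UVB, and Ppargc1b 3 and 5 in the cultured lists.

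Nr1d1 and Nr1d2 encode REV-ERB alpha and beta, heme-binding receptors that repress Arntl. Nr1d1 spans 7.4 kb on chromosome 11 and had 20 elements, of which 3 lay inside it and 8 in another gene, mainly Thra, the thyroid hormone receptor gene beside it. The number of regions was 10 in homeostasis, 16 at 1 week, 13 at 8 weeks, 12 following the second wound, 16 with PRT4165, 13 with vehicle, 15 with wound and UVB, 15 with UVB, 11 in cultured distal memory and 12 in cultured control cells. It had the highest share of elements held by all 10 lists among the 8 genes, 9 of 20 (45.0%, interval 25.8 to 65.8), and all 9 that the uncultured lists shared were also in both cultured lists. Beside its start element, a second element 0.5 kb upstream was in 5 lists, at percentile 0.794 to 1.25.

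The strongest element of Nr1d1 was chr11:98729120-98729727, 38.5 kb below the lower end and thus downstream of the gene, which is on the minus strand. Its signal was 12.9 in homeostasis, 16.7 at 1 week, 9.89 at 8 weeks, 14.2 following the second wound, 19.3 with PRT4165, 24.4 with vehicle, 30.3 with wound and UVB, 25.5 with UVB, 18.6 in cultured distal memory and 17.2 in cultured control cells. It ranked at percentile 99.6 with wound and UVB and at 55.5 at 8 weeks, the widest range of rank among the 9. Inside the gene, an element 5.0 kb above the lower end ranked at 36.1 in distal memory and 44.4 in control cultures, against 0.488 to 4.48 in the 5 uncultured lists that held it. The 3 elements of Nr1d1 held by a single list were weak, with a signal of 4.21 at most.

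Nr1d2 spans 35.1 kb on chromosome 14 and had the fewest elements, 8. Regions numbered 2 in homeostasis, 3 at 1 week, 4 at 8 weeks, 4 following the second wound, 6 with PRT4165, 5 with vehicle, 6 with wound and UVB, 7 with UVB, 5 in cultured distal memory and 5 in cultured control cells. Its start element was in all 10 lists. The strongest, chr14:18270488-18271608, lay 32.0 kb upstream of the start and was also in all 10, at percentile 97.2 to 99.5. Its signal was 21.9 in homeostasis, 21.8 at 1 week, 20.6 at 8 weeks, 22.4 following the second wound, 23.5 with PRT4165, 23.2 with vehicle, 25.0 with wound and UVB, 24.9 with UVB, 22.2 in cultured distal memory and 23.7 in cultured control cells. No other element of the 8 genes ranked above percentile 97 in every list. At the opposite end of the gene, 0.5 kb above its lower end, chr14:18204219-18204721 was present in the cultured lists alone, with a signal of 19 in distal memory and 21.1 in control cells. The 2 elements held by 1 list had 5.09 with UVB and 6.59 with vehicle.

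Per1 and Per2 encode the period proteins of the negative limb. Per1 spans 14.9 kb on chromosome 11 in a gene-rich stretch with 7 other genes in its window, among them the epidermal lipoxygenase genes Aloxe3 and Alox12b, and it had 27 elements. Regions numbered 13 in homeostasis, 17 at 1 week, 10 at 8 weeks, 13 following the second wound, 18 with PRT4165, 19 with vehicle, 19 with wound and UVB, 22 with UVB, 16 in cultured distal memory and 17 in cultured control cells. Of the 5 elements inside the span, 3 were in all 10 lists, and all 3 were weak by rank, between percentile 0.889 and 28.6. The strongest element, chr11:69059126-69060346, lay 35.5 kb below the gene, with a signal of 16.4 in homeostasis, 13.8 at 1 week, 10.9 at 8 weeks, 17 following the second wound, 15.6 with PRT4165, 15.4 with vehicle, 18.4 with wound and UVB, 16.2 with UVB, 9.92 in cultured distal memory and 10.9 in cultured control cells. In rank it ran from percentile 53.2 in distal memory cultures to 94.2 in homeostasis. The element at the 5′ end of the gene span, chr11:69094679-69095373, was in all 10 lists. The element 1.0 kb beyond the 3′ end of Per1 was in the cultured lists alone, with 5.12 in distal memory and 5.26 in control cells. The stronger of the 2 elements held by 1 list had 5.54, with UVB.

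Per2 spans 43.4 kb on chromosome 1 and had 19 elements. Regions numbered 11 in homeostasis, 16 at 1 week, 8 at 8 weeks, 11 following the second wound, 14 with PRT4165, 17 with vehicle, 16 with wound and UVB, 17 with UVB, 11 in cultured distal memory and 11 in cultured control cells. The element at its upper end, chr1:91459026-91459871, was in all 10 lists. Its signal was 5.83 in homeostasis, 5.30 at 1 week, 5.41 at 8 weeks, 5.26 following the second wound, 8.14 with PRT4165, 7.66 with vehicle, 9.64 with wound and UVB, 7.97 with UVB, 12.3 in cultured distal memory and 12.6 in cultured control cells. The wound series stood at percentile 6.30 to 11.6, the PRT4165, vehicle and UVB lists at 34.8 to 40.2, and the cultured lists at 69.6 and 73.1. A second element just inside that end was in all 10 lists at percentile 5.80 to 18.7. An element 1.5 kb beyond the end was in the 8 uncultured lists and in neither cultured list, with signals of 4.90 to 6.55. The strongest element of the window, 2.7 kb below the gene inside Hes6, was in all 10 lists, with 12.4 in homeostasis, 13.0 at 1 week, 14.3 at 8 weeks, 12.5 following the second wound, 16.6 with PRT4165, 14.9 with vehicle, 20.2 with wound and UVB, 17 with UVB, 15.9 in cultured distal memory and 16.2 in cultured control cells. The vehicle list alone held 1 element, with 4.32.

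Bhlhe40 spans only 6.3 kb on chromosome 6, with no other gene in its window, and 13 of its 15 elements lay more than 1 kb outside it. Regions numbered 7 in homeostasis, 7 at 1 week, 7 at 8 weeks, 6 following the second wound, 9 with PRT4165, 12 with vehicle, 11 with wound and UVB, 10 with UVB, 11 in cultured distal memory and 10 in cultured control cells. Its strongest element, chr6:108638237-108638988, lay 22.0 kb below the lower end and was in all 10 lists. The signal was 21.1 in homeostasis, 21.5 at 1 week, 17.3 at 8 weeks, 22.9 following the second wound, 25.8 with PRT4165, 25.6 with vehicle, 28.2 with wound and UVB, 24.4 with UVB, 9.29 in cultured distal memory and 10.7 in cultured control cells. It ranked at 47.7 and 62.2 in the cultured lists, against 95 to 99.2 in the others.

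The next strongest Bhlhe40 element, chr6:108618727-108619582, lay 41.5 kb below the gene and was in the 8 uncultured lists alone. Its signal was 11.7 in homeostasis, 14.8 at 1 week, 15 at 8 weeks, 14.2 following the second wound, 22.2 with PRT4165, 19 with vehicle, 26.0 with wound and UVB and 21.2 with UVB. The element at the lower end of the gene was in all 10 lists at percentile 30.5 to 52.4. Above the gene, 16.5 and 27.9 kb above its lower end, 2 elements were in the cultured lists alone, with 7.36 and 6.40 in distal memory and 6.19 and 6.78 in control cells, in that order. Of the 2 elements held by 1 list, the stronger had 6.46, in cultured distal memory.

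**Figure D3:**
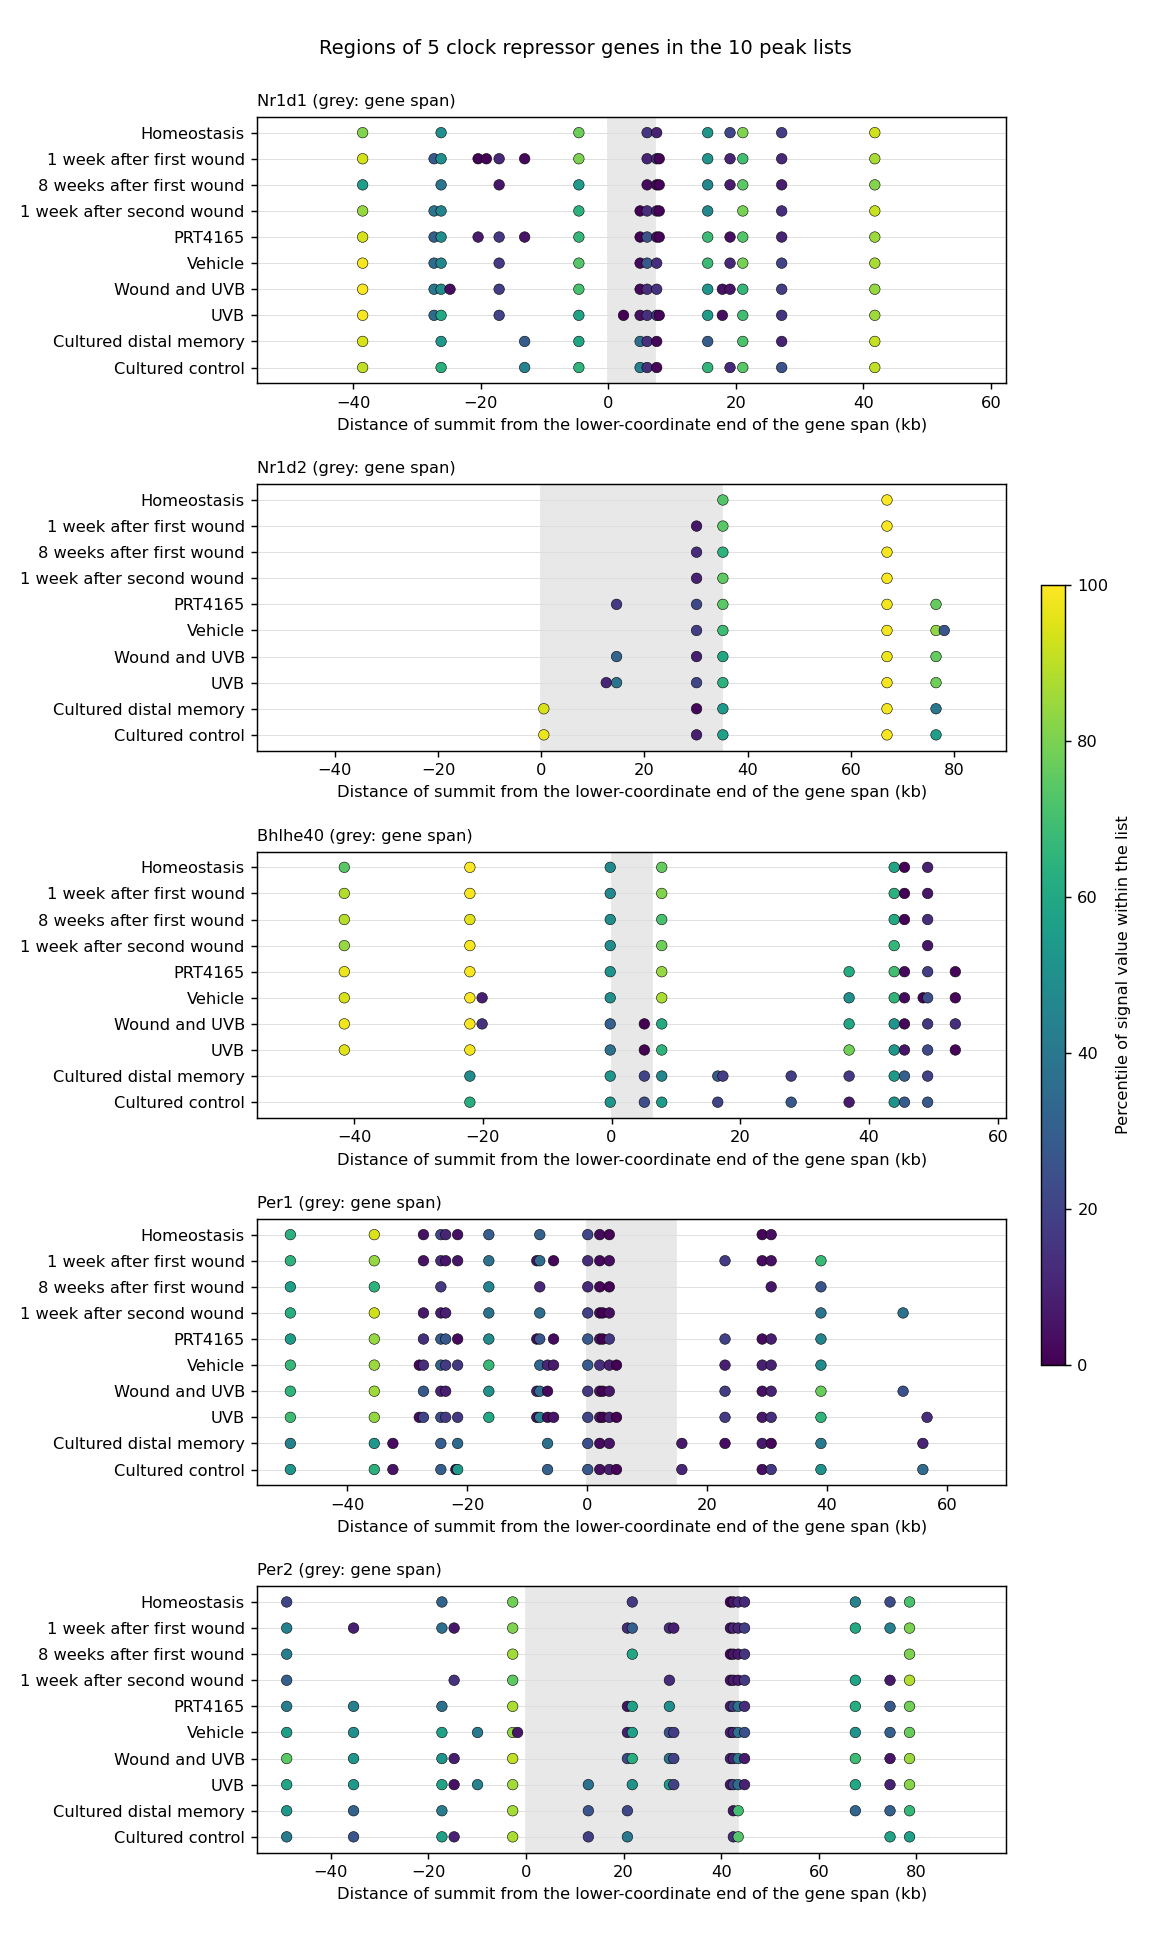
Positions of the elements of Nr1d1, Nr1d2, Bhlhe40, Per1 and Per2 (x axis, kb from the lower end of the gene span; grey marks the span) in the 10 lists (rows). Each point is an element present in that list, coloured by the rank percentile of its signal; the Nr1d2 element 67.0 kb above the lower end is at percentile 97.2 to 99.5 in all 10 lists, and the Bhlhe40 element 41.5 kb below the gene is missing from both cultured lists.

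Ppargc1a encodes a coactivator that is induced by cold, fasting and cyclic AMP in several tissues. RefSeq places its start window inside a span of 661.6 kb on chromosome 5 whose upper end lies much farther upstream, and 28 elements fell in its window. The region over the start window was present at 1 week after the first wound, with PRT4165, with vehicle and with UVB, and in no other list. Its signal was 7.30 at 1 week, 8.72 with PRT4165, 7.88 with vehicle and 8.53 with UVB, and its summit lay 883 to 899 bases upstream of the start, outside the sequence printed above. The element at the far upstream end, chr5:52115590-52116486, was in all 10 lists. Its signal was 8.87 in homeostasis, 8.21 at 1 week, 9.63 at 8 weeks, 10.5 following the second wound, 9.86 with PRT4165, 11.5 with vehicle, 10.9 with wound and UVB, 9.83 with UVB, 5.50 in cultured distal memory and 5.46 in cultured control cells. The far upstream end of the gene was thus open in every list, and the RefSeq start window was covered in 4.

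Ppargc1a had 7 regions in homeostasis, 10 at 1 week, 8 at 8 weeks, 7 following the second wound, 17 with PRT4165, 23 with vehicle, 11 with wound and UVB, 14 with UVB, 7 in cultured distal memory and 11 in cultured control cells. Of its 28 elements, 4 were held by the PRT4165 and vehicle lists alone (14.3%, interval 5.70 to 31.5), against 1.41% of all elements, and in the other 7 genes 1 element was, in Rora. This pattern was not a planned count either. Its interval also treats neighbouring elements as independent, so the share is a description only. The strongest of the 4, chr5:51432082-51432480, lay 22.0 kb below the gene, with a signal of 13.8 with PRT4165 and 15.7 with vehicle. A neighbouring element, chr5:51439638-51440295, had 8.14 in homeostasis, 11.3 at 1 week, 18.5 with PRT4165, 17.6 with vehicle and 9.80 with UVB, and was absent from the other 5 lists. Its 18.5 with PRT4165, at percentile 91.9, was the highest signal of any element in the window.

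Of the 8 Ppargc1a elements held by a single list, 4 belonged to the cultured control, 3 to vehicle and 1 to PRT4165, a split not counted over all elements. The strongest had 9.16 in the cultured control, 111.0 kb above the lower end. The cultured lists alone held 2 others, one of them 581.3 kb above the lower end with 12.5 in distal memory and 11.7 in control cells. The 2 elements shared by all uncultured lists and absent from culture lay 129.0 and 141.6 kb above the lower end. The second of these had 10.7 in homeostasis, 8.82 at 1 week, 7.01 at 8 weeks, 11.5 following the second wound, 15.7 with PRT4165, 15.1 with vehicle, 16.8 with wound and UVB and 18.0 with UVB.

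Ppargc1b encodes the related coactivator, which is known to act with estrogen-related receptors. It spans 109.3 kb on chromosome 18 and had 27 elements, 17 inside the span and 6 in Pde6a next to it. Regions numbered 11 in homeostasis, 14 at 1 week, 11 at 8 weeks, 12 following the second wound, 16 with PRT4165, 24 with vehicle, 18 with wound and UVB, 24 with UVB, 3 in cultured distal memory and 5 in cultured control cells. Per 10000 regions that is 0.656 in distal memory and 0.923 in control cultures, the lowest of its 10 lists. The 2 elements held by all 10 lists were those 0.3 kb inside and 1.0 kb outside the upper end of the gene. The inner one stood at percentile 38.1 in distal memory and 40.3 in control cultures, against 2.43 to 25.4 in the uncultured lists, and the outer one at 8.80 and 14.3, against 37.1 to 66.6.

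Of the 9 Ppargc1b elements that all 8 uncultured lists held, 5 were in neither cultured list. The strongest of these and, by its highest value, of the window lay 5.0 kb inside the lower end. It had a signal of 9.74 in homeostasis, 15.2 at 1 week, 11.8 at 8 weeks, 12.6 following the second wound, 15.7 with PRT4165, 15.4 with vehicle, 17.1 with wound and UVB and 15.5 with UVB. The highest signal of the window belonged to another element in homeostasis (11.8), following the second wound (16.3), with vehicle (15.9) and with UVB (16.7). The others lay 44.4 and 12.2 kb below the gene, in Pde6a, and 11.1 and 56.9 kb above its lower end. The strongest element of the 3 held by a single list had 5.93, in the cultured control.

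Over the 8 genes, 17 elements were in every uncultured list and in neither cultured list (8.54%, interval 5.40 to 13.3), against 5.06% of all elements. This pattern was not a planned count, unlike the share held by all 10 lists, so it is a description only. As a share of the 57 elements that all 8 uncultured lists held, these 17 are 29.8% (interval 19.5 to 42.7), against 19.8% over the genome. Rora gave 5 of 11 and Ppargc1b 5 of 9, while Nr1d1 gave 0 of 9 and Nr1d2 0 of 2. The counts of a single gene are small, and the interval for Rora runs from 21.3 to 72.0% and that for Ppargc1b from 26.7 to 81.1%. Elements held by both cultured lists alone were 11 (5.53%), against 7.75% of all elements. Both cultured lists hold the Y-linked regions and most uncultured lists do not, and the part of this in the difference was not tested.

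**Figure D4:**
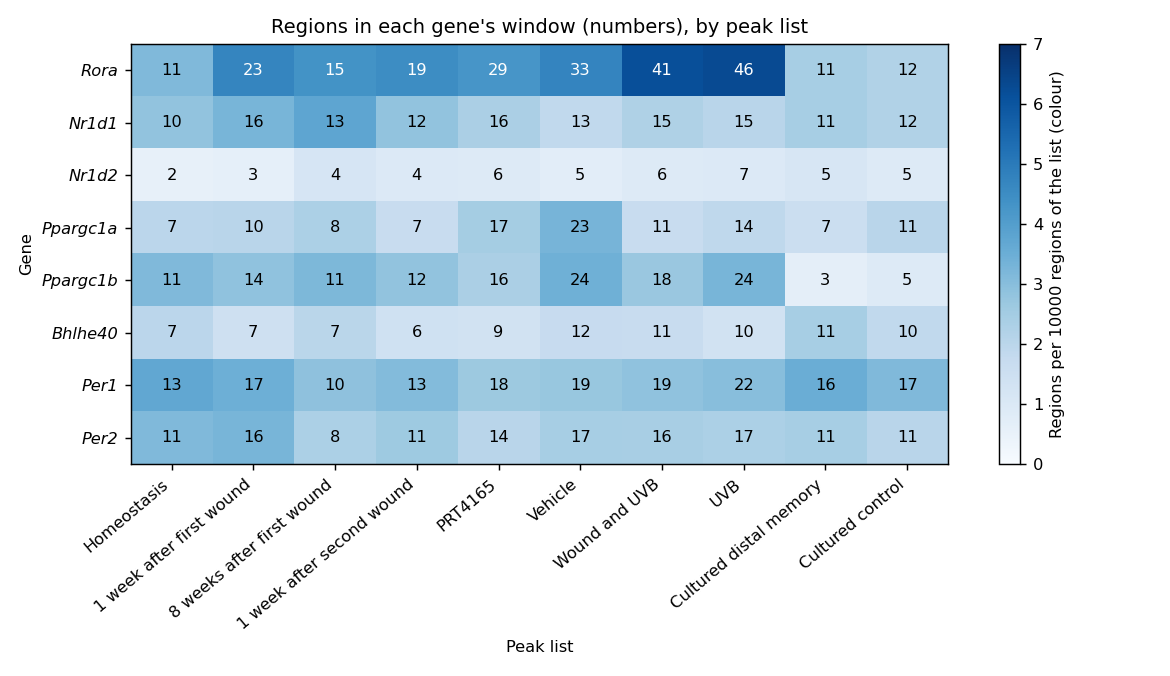
Regions of each member (rows) in each of the 10 lists (columns): the number in a cell is the count, and its colour the count per 10000 regions of the list. Rora runs from 11 regions in homeostasis to 46 with UVB, and Ppargc1b has 3 regions in cultured distal memory and 5 in cultured control cells.

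One week after the first wound, the list held 34 member regions that had no overlap in homeostasis, of 106 (32.1%, interval 24.0 to 41.5), and 33.1% of all its regions were gained in this sense. Rora had 12 of its 23 regions gained, Nr1d1 6 of 16, Per2 5 of 16, Per1 4 of 17, Ppargc1a 3 of 10, Ppargc1b 3 of 14 and Nr1d2 1 of 3, and Bhlhe40 none of 7. The strongest gained region lay in Ice2, 9.7 kb beyond the upper end of Rora, at chr9:69397603-69398776, with a signal of 12.6. None of the 72 homeostasis regions was missing at 1 week, which allows a share of up to 4.17% by the rule of 3 counts and 5.07% by the Wilson limit, and 6.04% of all homeostasis regions were missing. With both lists cut to the same number of strongest regions, 24 of 72 were missing (33.3%, with 22.8% of all) and 9 of 57 were gained (15.8%, with 23.9%). The cut left 57 of the 106 member regions at 1 week, whose median percentile had been 31.4. All 24 overlapped a region of the uncut 1 week list. At the deposited lengths the gained share was thus close to that of the whole list, and with lists of equal length both shares moved.

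At 8 weeks the members' regions were 12 gained of 76 (15.8%, interval 9.27 to 25.6, against 17.9% of all regions) and 10 lost of 72 from homeostasis (13.9%, interval 7.72 to 23.7, against 19.1%). Rora had 4 gained and none of 11 lost, and the strongest gained region was Rora's chr9:69092096-69092822, with a signal of 13.2 at 8 weeks. Per1 had 4 of 13 lost, Per2 3 of 11, Ppargc1b 2 of 11 and Ppargc1a 1 of 7. The strongest lost region was 24.2 kb above Per2, with 8.52 in homeostasis. With a window of 10 kb, 1 of 39 homeostasis regions was lost (2.56%, against 19.1%).

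One week after the second wound, 20 of 84 regions were gained against homeostasis (23.8%, with 27.3% of all regions) and 9 of 72 were lost (12.5%, with 12.9%). The lost count was 25 of 72 with lists of equal length (34.7%, with 22.7%), and 2 of 39 with a window of 10 kb (5.13%, with 12.9%). Rora again had the most, 8 of 19 gained and none of 11 lost. The Ice2 region beside Rora was again the strongest gained, with 12.8. The strongest lost was a Ppargc1b region 17 kb inside its upper end, with 8.35 in homeostasis. All 3 wound comparisons use the same homeostasis list, so they are not independent of each other.

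Set against the first wound at the same interval, the second-wound list gained 6 of 84 member regions (7.14%, with 9.85% of all regions). It lacked 29 of 106 held after the first (27.4%, interval 19.8 to 36.5, with 23.1%). With lists of equal length the order turned for the members, to 25 of 84 gained (29.8%, with 18.0%) and 12 of 70 lost (17.1%, with 18.9%). Over all regions the order did not turn. Per1 and Rora had 6 lost each, of 17 and of 23, Nr1d1 5 of 16 and Per2 5 of 16. The strongest lost was the Ppargc1a region 14.3 kb below the gene, with 11.3 after the first wound, and the strongest gained was a Rora region 564.1 kb above the lower end, with 8.60 after the second.

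PRT4165 against vehicle gave 12 gained of 125 (9.60%, interval 5.58 to 16.0, with 11.4% of all regions) and 32 lost of 146 (21.9%, interval 16.0 to 29.3, with 13.9%). Rora had 9 of 33 lost, Ppargc1b 8 of 24, Ppargc1a 5 of 23, Bhlhe40 3 of 12, Per2 3 of 17, Per1 3 of 19, Nr1d2 1 of 5 and Nr1d1 none of 13. These were weak regions: the strongest lay 10 kb below Per2, with a signal of 8.05 and percentile 40.9 in the vehicle list. Among the stronger 50% of the vehicle list, none of 50 member regions was missing with PRT4165, and 1.63% of all such regions were. The strongest gained was a Ppargc1a region 25.4 kb above its lower end, with 7.49 with PRT4165.

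Wound and UVB against UVB gave 11 gained of 137 (8.03%, with 10% of all regions) and 31 lost of 155 (20%, with 19.3%). With lists of equal length the order turned for the members, to 28 of 137 gained (20.4%, with 15.7%) and 20 of 127 lost (15.7%, with 16.9%). Over all regions the order did not turn. Rora had 9 of 46 lost, Ppargc1b 7 of 24, Ppargc1a 5 of 14 and Per1 5 of 22, and Bhlhe40 none of 10. Among the lost were the 2 Ppargc1a elements below the gene that the UVB list held, with 13.6 and 9.80. The strongest lost was a Ppargc1b region 47.8 kb beyond its upper end, with 15.2 with UVB at percentile 80.4. The strongest gained lay in Dhx15 beyond Ppargc1a, with 8.16 with wound and UVB. The Y-linked regions were in the wound and UVB list and not in the UVB list. Wounding and that difference cannot be told apart here.

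The cultured distal memory cells against cultured control cells gave 5 gained of 75 (6.67%, with 7.60% of all regions) and 13 lost of 83 (15.7%, interval 9.39 to 25.0, with 22.2%). With lists of equal length the order turned for the members, to 17 of 75 gained (22.7%, with 15.5%) and 7 of 65 lost (10.8%, with 16.0%). Over all regions the order did not turn. Ppargc1a had 4 of 11 lost, Ppargc1b 3 of 5, and Rora and Per1 2 each, of 12 and of 17. The strongest lost was a Rora region 432.1 kb above the lower end, with 9.75 in control cells, which all 8 uncultured lists also held. The strongest gained lay 24.2 kb above Per2, with 7.81 in distal memory cells.

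**Figure D5:**
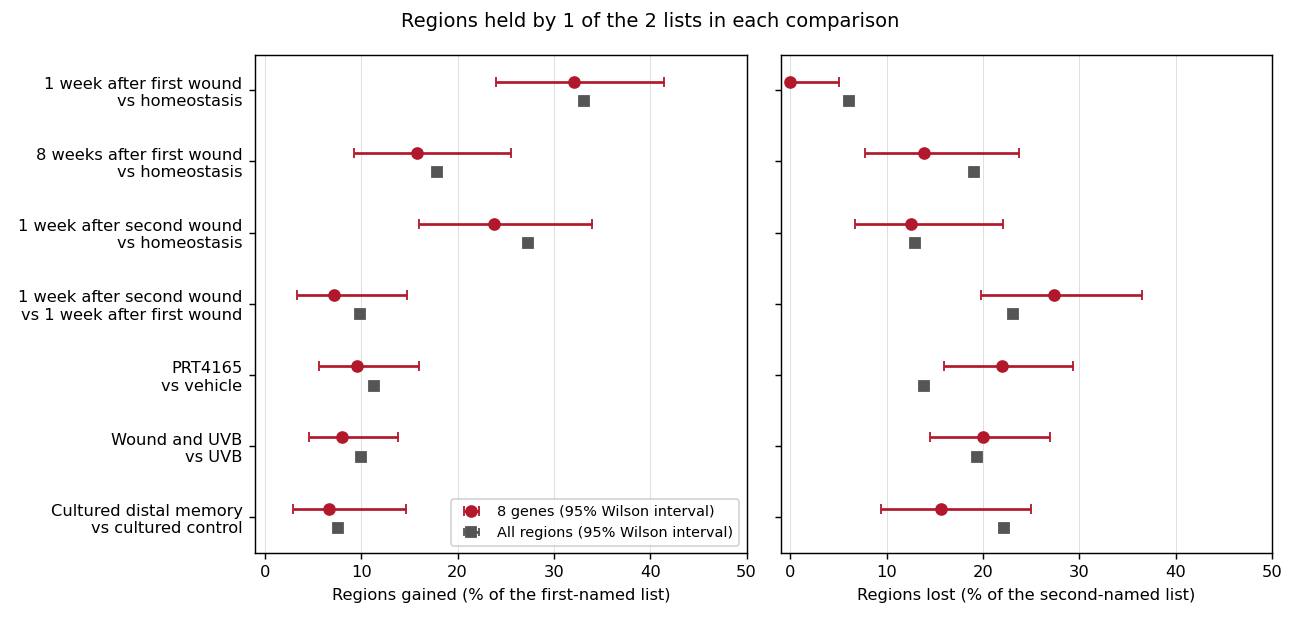
Share of regions gained (left) and lost (right) in the 7 comparisons, in percent, for the members with Wilson 95% intervals and for all regions of the list. The lost share with PRT4165 is 21.9% for the members and 13.9% for all regions, and at 1 week it is 0 of 72 for the members.

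Other genes of the clock were counted in the same windows. Of 18, 63 of 268 elements were held by all 10 lists (23.5%, against 18.8% of all elements) and 14 by every uncultured list alone (5.22%, against 5.06%). At 1 week after the first wound 49 of 156 regions were gained (31.4%, against 33.1% of all regions) and 3 of 108 homeostasis regions were lost (2.78%, against 6.04%). Tef and Cry2 had the most gained, 6 of 11 and 6 of 15. With PRT4165 against vehicle 12 of 189 were gained (6.35%, against 11.4% of all regions) and 30 of 206 lost (14.6%, against 13.9%). Arntl, the target of RORA and the REV-ERB receptors, had 29 elements and 8 to 24 regions per list, but in no list a region with its summit within 1 kb of an annotated end. These are the outer ends of the span, so a start inside it was not looked at. Rorb had 4 elements, none of them in homeostasis.

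The 50 kb limit cut between neighbouring elements. The farthest inside were at Per2, 49.6 kb away, in 10 lists with a highest signal of 15.3, at Per1, 49.5 kb away, in 10 lists with 13.4, and at Ppargc1b, 49.4 kb away, in 6 lists with 8.21. The nearest outside were at Per1, 50.7 kb away, in 1 list with 15.2, at Rora, 51.9 kb away, in 6 lists with 7.59, and at Bhlhe40, 52.2 kb away, in 2 lists with 6.87.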

How the data were processed

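The libraries were ATAC-seq libraries of sorted mouse epidermal cells, 20 in 10 groups of 2. The deposited data are 10 peak lists on mm10, per the submitters' processing notes. The authors made each from the 2 libraries of a group, and its name carries the words IDR and conservative. Per peak the lists give the authors' signal value and the authors' score, 540 or higher in every list. The signal value was used to rank regions within a list and to name the strongest elements. The aligner, the caller, filters, any Tn5 shift and depth are not stated there, so shorter lists may reflect fewer reads, which was not tested.

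Overlapping peaks on chromosomes 1 to 19, X and Y were merged into regions, and the strongest peak gave signal and summit. A region with no overlap of 1 bp in the other list was gained or lost. Gene spans and start windows came from RefSeq tables for GRCm38.p6, without exons, and no genome sequence was used. The 14 overlap counts were also made with bedtools 2.31.1 and were equal, and the code was tested on simulated data. Python 3.11.15, numpy 2.4.6, pandas 2.3.3, scipy 1.17.1 and matplotlib 3.10.9 were used. The genes, the lists and the named regions (for each gene its end elements, strongest element and strongest element of 1 list, and for each comparison the strongest gained and lost region) were chosen with earlier results of these data known. Other regions named were chosen after their values were seen. Alternatives were a 10 kb window, a 50% overlap, the stronger 50% of each list, lists of equal length and elements joined by summits.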

Additional observations from a re-analysis of the deposited data

How the results depend on the processing

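Of 60 alternatives 38 left the share within its interval, among them all 14 with an overlap of 50% of both regions, and 22 moved it. All shares here are of the members' regions, in percent, with the share of all regions in brackets. Among the stronger 50% of a list, the gained share against homeostasis was 8.82 at 1 week (15.6), 7.14 at 8 weeks (6.25) and 8.57 after the second wound (12.3). It was 0 for the second against the first wound (2.60), PRT4165 against vehicle (1.93), wound and UVB against UVB (3.03), and distal memory against control cultures (0.582). The lost share there was 0 at 8 weeks (5.32), after the second wound against homeostasis (3.06) and with PRT4165 (1.63), 2.94 for the second against the first wound (7.98), 5.08 for wound and UVB (6.003), and 5.88 for distal memory cultures (3.59). Both the members' shares and those of all regions were lower there in these comparisons. With both lists cut to the same length, the gained share was 15.8 at 1 week (23.9), 29.8 for the second against the first wound (18.0), 20.4 for wound and UVB (15.7) and 22.7 for distal memory cultures (15.5). The lost share was then 33.3 at 1 week (22.8) and 34.7 after the second wound (22.7), each against homeostasis, and 17.1 for the second against the first wound (18.9). The count of no lost region at 1 week therefore did not hold with lists of equal length. The regions lost there overlap regions of the deposited 1 week list that the cut removed. Member regions ranked low in that list, with a median percentile of 31.4. A window of 10 kb gave lost shares of 2.56 at 8 weeks (19.1) and 5.13 after the second wound (12.9). The share held by all 10 lists was 16.3 with that window and 14.7 with elements joined by summits no more than 250 bp apart, and the share held by the uncultured lists alone was 10.1 and 7.56. No paired analysis was possible because each group has 1 list made from both of its libraries. Without values per library, replicates could not be left out in turn.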

Other observations

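Partners of the PGC-1 coactivators and mitochondrial regulators, 18 genes, were counted in the same windows. Of their 209 elements, 55 were held by all 10 lists (26.3%) and 4 by every uncultured list alone (1.91%), beside 18.8% and 5.06% of all elements. Pprc1, the third coactivator gene of the family, had 9 elements, with 5 regions in homeostasis, 10 with UVB, 6 in cultured distal memory and 7 in cultured control cells. Esrrg, an estrogen-related receptor, had 13 elements, with 9 regions with PRT4165 and 12 with vehicle, 3 with wound and UVB and 7 with UVB, and 3 in homeostasis. Esrrb had 4 elements, all 4 of them in the cultured control list and none in the homeostasis, wound or UVB lists. Ucp2, an uncoupling protein gene of mitochondria, had 6 of 10 regions gained at 1 week after the first wound, as did Ppara with 6 of 12, and 37 of 112 regions of the list were gained (33.0%, with 33.1% of all regions).

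The genes whose counts per list were most like those of a member were found by Pearson r over the 10 lists on log2 of the share of regions, with 0.5 added to each count, among about 9800 genes with at least 10 elements. They were Sectm1b for Rora (0.97), Sh2d7 for Nr1d1 (0.96), D430041D05Rik for Ppargc1a (0.84), Rapgef4 for Ppargc1b (0.98), Atp4a for Bhlhe40 (0.97), Chd3 for Per1 (0.93) and Osm for Per2 (0.93). Nr1d2, with 8 elements, was left out. The highest of so many values over 10 lists is high by selection, and all counts of a list come from the same libraries.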
